A study of Mus musculus with 8 samples.

Results

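The receptors by which macrophages take up modified lipoproteins, glycoproteins, microbes, haemoglobin and dying cells were followed in mouse peritoneal macrophages treated with LECT2, through 10 genes: Marco, Msr1, Cd36, Scarb1, Cd163, Mrc1, Stab1, Siglec1, Mertk and Axl. A probe was counted as theirs where its name in the scanner files was a RefSeq transcript of these genes, which gave 13 oligonucleotide probes for the 10 genes. All 10 were among the 26148 genes tested, although Cd163 was dim, with at least 1 channel well above background on 6 of 8 arrays. Msr1, Scarb1 and Siglec1 had more than 1 probe, and the probe that was brightest on average stands for the gene unless the other is named.

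Class A scavenger receptors are trimers with a collagen-like stalk that bind polyanionic ligands such as acetylated lipoproteins and bacterial walls, and class B receptors are membrane-spanning hairpins that bind oxidised lipoproteins and fatty acids. Dying cells are recognised through phosphatidylserine, which the kinase Mertk binds by way of the bridging proteins Gas6 and protein S, and the kinase Axl by way of Gas6. Tissue-resident macrophages of the peritoneal cavity are long known for clearing such cells, and Marco and Siglec1 are textbook markers of macrophages exposed to microbial products and to interferon.

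RNA was taken from macrophages washed out of the mouse peritoneum and cultured in low-glucose medium with 20% fetal bovine serum. LECT2, leukocyte cell-derived chemotaxin 2, is a secreted protein made mainly in the liver. It was added at 0.5 µg/ml (low dose) or 5 µg/ml (high dose) for 3.5 or 48 h, and each treated RNA shared a 2-colour Agilent array with RNA of cells kept without LECT2 for the same time. The 4 groups were the low dose at 48 h, the high dose at 48 h, the low dose at 3.5 h and the high dose at 3.5 h, with 2 arrays each from independent experiments on different mice. Strain, age, sex, number of mice per experiment and the source of the LECT2 are not given in the sources used here, and the channel labels of the early arrays read 3 h where the titles read 3.5 h. LECT2 RNA carried Cy3 and control RNA Cy5 on every array, so no dye swap separates a dye effect from the treatment.

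The effect of LECT2 was read as the log2 ratio of LECT2 over control, the deposited value with its sign turned. Before any result, a conflict in the files has to be stated. In 7 of 8 columns the deposited values followed best a scanner file recorded under another sample. The 48 h columns equalled the ratios of those other files within 0.01 for at least 99.99% of 19942 probes, the 3.5 h columns followed theirs at correlations across probes of 0.990 to 0.996, and replicate 1 of the low dose at 3.5 h followed its own file at 0.802. The column names carry the sample labels, and they set the groups here. Results from the files under their recorded labels and under the matched ones are given for the calls at the high dose after 48 h. They are also given for the counts of called receptor genes. Other values follow the column names unless stated. By the match, all 3.5 h arrays lay on 1 slide and all 48 h arrays on the other, so a difference between times and a difference between slides cannot be told apart. Genes were tested with limma over all 8 arrays, and p-values were adjusted by Benjamini-Hochberg over all genes, with calls at an adjusted p under 0.05.

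Of 8 macrophage markers, 7 were measured (Adgre1, Csf1r, Gata6, Icam2, Itgam, Lyz2 and Timd4) and all 7 were well above background in both channels of all 8 arrays. Genes of other peritoneal cells were present too. Of 5 B cell genes 4 were well above background throughout, as were 4 of 5 T and NK cell genes, 4 of 8 mesothelial and fibroblast genes, 3 of 5 mast cell genes and 3 of 5 dendritic cell genes. Lep and Lyve1 were not well above background on any array. The arrays measured the mixed RNA, in which fewer cells of a type and less of an RNA per cell cannot be told apart.

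The receptor genes moved in both directions at the high dose after 48 h. Siglec1 and Marco rose, and Cd36, Mrc1 and Scarb1 fell, so that 5 of 10 receptor genes were called, against 11.2% of all genes tested. In single directions, 2 of 10 rose against 4.31% of all genes, and 3 of 10 fell against 6.91%. The 10 genes were chosen with earlier results of these data known, so these shares are a description and not a test. The median effect over the 10 genes was -0.48 on the log2 scale, with a range of -2.23 to 3.10, and the median over all genes was -0.01. In the other groups no receptor gene passed limma's adjusted threshold by its brightest probe. The other probes of Scarb1 and Siglec1 passed it at the high dose after 3.5 h, as given below. The low dose at 48 h had 0 of 10 called against 0.172% of all genes, with 1 at an unadjusted p under 0.05 and a median of 0.17. The low dose at 3.5 h had 0 of 10 called against 4.89% of all genes, with 1 at an unadjusted p under 0.05 and a median of -0.27. The high dose at 3.5 h had 0 of 10 called against 21.9% of all genes. There 3 of 10 were at an unadjusted p under 0.05, and the median was -0.32. Of all 26148 genes, 2639 were at an unadjusted p under 0.05 at the low dose after 48 h. After 3.5 h these were 5803 at the low dose and 9750 at the high dose. In none of these 3 groups did the unadjusted receptor count exceed the share of all genes.

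**Figure D1:**
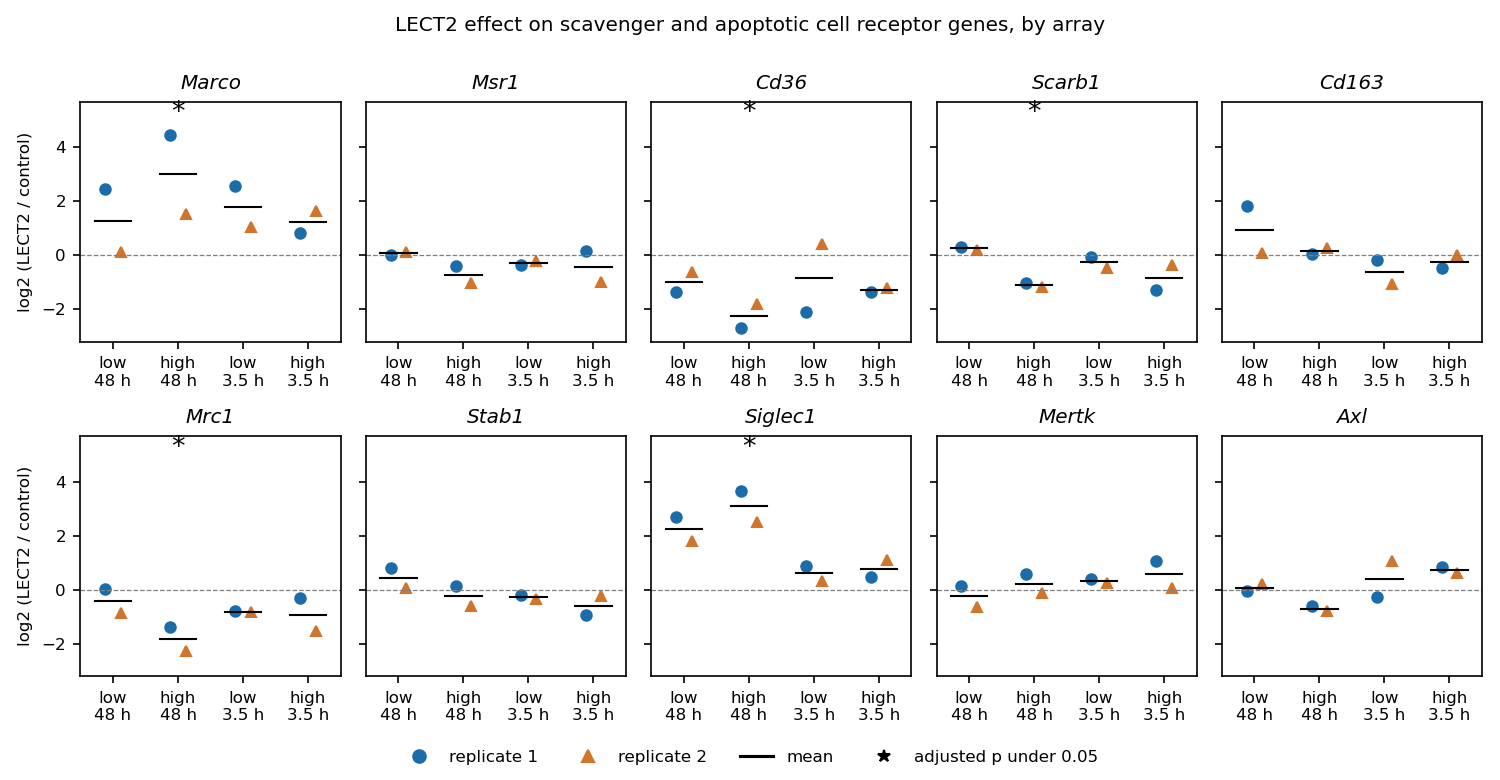
Each panel plots 1 receptor gene; the y axis is the log2 ratio of LECT2 over control, the x axis the dose and time, points are the 2 arrays of a group and bars their mean, and a star marks an adjusted p under 0.05 (limma). Stars stand only at the high dose after 48 h, above 0 for Siglec1 and Marco and below 0 for Cd36, Mrc1 and Scarb1.

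The promoters of called receptor genes found in the RefSeq table of build GRCm38.p6 are shown to put the sequence before the start site beside the responses. The table held 7 of the 10 receptor genes, and of the 5 called ones Marco, Cd36 and Mrc1. Each run is the 250 bases up to the transcription start that the table gives, read along the gene, with motif matches in capitals. For Marco and Mrc1 that start is the outer end of the annotated gene, but for Cd36 it lies 53.1 kb inside the gene (17781690 to 17888959), so its window belongs to an internal start and not to the outermost one. Marco is at chr1:120505025-120505274 (minus strand), Cd36 at chr5:17835897-17836146 (minus strand) and Mrc1 at chr2:14229164-14229413 (plus strand).
Marco: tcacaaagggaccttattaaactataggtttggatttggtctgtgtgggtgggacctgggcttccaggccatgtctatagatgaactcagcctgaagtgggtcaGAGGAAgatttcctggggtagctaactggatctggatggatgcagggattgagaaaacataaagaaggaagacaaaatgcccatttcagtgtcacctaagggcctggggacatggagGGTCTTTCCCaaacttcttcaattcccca
Cd36: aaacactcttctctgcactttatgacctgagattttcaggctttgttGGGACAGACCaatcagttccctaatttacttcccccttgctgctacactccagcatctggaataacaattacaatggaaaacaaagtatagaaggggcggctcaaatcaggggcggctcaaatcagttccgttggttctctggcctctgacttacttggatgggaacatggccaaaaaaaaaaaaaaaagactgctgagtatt
Mrc1: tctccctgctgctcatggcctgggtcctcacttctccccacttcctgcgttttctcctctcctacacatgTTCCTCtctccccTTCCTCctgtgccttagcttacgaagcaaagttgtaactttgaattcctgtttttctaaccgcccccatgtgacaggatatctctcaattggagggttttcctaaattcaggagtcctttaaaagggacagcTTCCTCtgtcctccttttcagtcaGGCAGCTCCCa

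On both strands of these windows 7 patterns were searched: the NF-kB consensus, a looser NF-kB pattern of GGGA and CC with any 4 bases between them, the interferon-stimulated response element, TGANTCA for AP-1, GAGGAA for PU.1, TTGCNNAA for C/EBP and the PPAR element. The window of Marco held the loose NF-kB letters on the minus strand at -29 to -20 and the PU.1 letters at -146 to -141, counted from the start site. The window of Cd36 held the loose NF-kB letters at -203 to -194. In the Mrc1 window the loose NF-kB letters lay on the minus strand at -11 to -2, and the PU.1 letters lay on that strand at -180 to -175, -167 to -162 and -35 to -30. None of these matches overlapped. Among the 7 receptor promoters, 6 held the loose NF-kB letters and 4 the PU.1 letters, against 17.6% and 23.3% of 32851 promoters in the table. The NF-kB consensus had 0 matches in the 7 windows, as had the interferon element, AP-1, C/EBP and PPAR, and 3.90%, 2.75%, 6.75%, 9.56% and 0.490% of all promoters held these, in that order. The loose NF-kB letters stood in windows of genes that rose (Marco), that fell (Cd36, Mrc1) and that were not called (Cd163, Mertk, Axl). The patterns for NF-kB, the interferon element and PPAR were first searched in looser forms, and the consensus forms were chosen after those matches had been seen. A match is a description of the sequence only.

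Marco and Msr1 are the class A receptors of the set. After 48 h at the high dose, Marco had log2 ratios of 4.48 and 1.55 on its 2 arrays, a mean of 3.01 ± 0.77 (standard error of the fit, n = 2), or 8.08-fold higher with LECT2 (limma, adjusted p = 0.0469). Its ratios at the low dose after 48 h were 2.47 and 0.12, a mean of 1.29 ± 0.77 (adjusted p = 0.639). All 8 arrays gave Marco a ratio above 0, but the replicates of a group differed by up to 2.93 log2 units. At 3.5 h the ratios were 2.56 and 1.04 at the low dose and 0.82 and 1.65 at the high dose, with means of 1.80 ± 0.77 (adjusted p = 0.225) and 1.23 ± 0.77 (adjusted p = 0.285). The standard error of Marco was the highest of the 10 genes.

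Msr1, the macrophage scavenger receptor for acetylated lipoproteins, was not called in any group. Its ratios at the high dose after 48 h were -0.39 and -1.03 (mean -0.71 ± 0.31, adjusted p = 0.170), and at the low dose after 48 h 0.03 and 0.11. At 3.5 h they were -0.35 and -0.19 at the low dose and 0.16 and -0.98 at the high dose. The other Msr1 probe gave -0.68 ± 0.35 at the high dose after 48 h and -0.91 ± 0.35 at the high dose after 3.5 h, with adjusted p-values of 0.240 and 0.101 in a fit of every probe. The class A pair thus differed at the high dose after 48 h in the sign of every array, Marco being above 0 and Msr1 below.

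Cd36, the class B receptor for oxidised lipoproteins, fatty acids and apoptotic cells, was 4.70-fold lower with the high dose after 48 h. Its ratios there were -2.67 and -1.79 (mean -2.23 ± 0.54, limma, adjusted p = 0.0394). Of the 8 arrays 7 were below 0, and the exception was the low dose at 3.5 h, where the arrays read -2.09 and 0.41. The array at -2.09 is the library whose column followed its scanner file at 0.802. The ratios were -1.36 and -0.60 at the low dose after 48 h (mean -0.98 ± 0.54, adjusted p = 0.604) and -1.36 and -1.21 at the high dose after 3.5 h (mean -1.29 ± 0.54, adjusted p = 0.125). Without the low dose replicate 1 at 3.5 h, a setting chosen after the data were seen, Cd36 was called at the high dose after 3.5 h too, with an unchanged mean and an adjusted p of 0.0246.

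Scarb1, the class B receptor that exchanges cholesterol esters with high-density lipoprotein, was 2.14-fold lower with the high dose after 48 h. Its arrays read -1.01 and -1.19, the closest replicates among the 5 called genes (mean -1.10 ± 0.27, limma, adjusted p = 0.0414). Both arrays of the low dose after 48 h were above 0, at 0.32 and 0.21. The other Scarb1 probe read -1.21 and -1.14 at the high dose after 48 h, a mean of -1.18 ± 0.21 (adjusted p = 0.0171 in the fit of every probe), so both probes were called lower. After 3.5 h at the high dose the brighter probe read -1.29 and -0.36 (mean -0.82 ± 0.27, adjusted p = 0.0643) and the other -0.74 and -1.14 (mean -0.94 ± 0.21, adjusted p = 0.0189). With the low dose after 3.5 h they read -0.07 and -0.45, and -0.71 and -0.75, without a call for either.

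Cd163, the haemoglobin scavenger receptor, was too dim to describe well: its probe was well above background in the LECT2 channel on 3 of 8 arrays and in the control channel on 5 of 8. After 48 h the ratios were 1.83 and 0.09 at the low dose and 0.04 and 0.27 at the high dose. After 3.5 h they were -0.17 and -1.06 at the low dose and -0.48 and 0.01 at the high dose. The replicates at the low dose after 48 h differed by more than the mean effect of 0.96 ± 0.41 (adjusted p = 0.497).

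Mrc1, the mannose receptor for glycoproteins and microbial sugars, was 3.55-fold lower with the high dose after 48 h. Its arrays read -1.40 and -2.26 (mean -1.83 ± 0.37, limma, adjusted p = 0.0245), and the array at -2.26 was the lowest of the 8. The high dose at 3.5 h gave -0.33 and -1.54 (mean -0.93 ± 0.37, adjusted p = 0.110). With the replicate number as a block, this early effect was called, with an adjusted p of 0.0439. The low dose gave 0.03 and -0.88 after 48 h (mean -0.43 ± 0.37, adjusted p = 0.762) and -0.79 and -0.82 after 3.5 h (mean -0.81 ± 0.37, adjusted p = 0.251).

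Stab1, stabilin-1, which clears modified lipoproteins and SPARC and binds dying cells, was not called in any group. Its ratios at the high dose were 0.14 and -0.61 after 48 h and -0.94 and -0.25 after 3.5 h. The low dose gave 0.80 and 0.06 after 48 h and -0.19 and -0.35 after 3.5 h. The means lay between -0.59 ± 0.30 (high dose, 3.5 h, adjusted p = 0.190) and 0.43 ± 0.30 (low dose, 48 h, adjusted p = 0.693).

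Siglec1, sialoadhesin, which binds sialylated cells and vesicles, rose at the high dose after 48 h. Its arrays there read 3.67 and 2.52, a mean of 3.10 ± 0.36, or 8.55-fold higher (limma, adjusted p = 0.00545). The low dose after 48 h gave 2.68 and 1.82, a mean of 2.25 ± 0.36, or 4.76-fold higher, which missed the threshold (adjusted p = 0.0797). At 3.5 h the ratios were 0.88 and 0.34 at the low dose (mean 0.61 ± 0.36, adjusted p = 0.372) and 0.45 and 1.08 at the high dose (mean 0.77 ± 0.36, adjusted p = 0.161). All 8 arrays were above 0, and all 4 arrays at 48 h were above all 4 at 3.5 h.

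The other Siglec1 probe was also above 0 on all 8 arrays but did not show the difference between times. It read 1.44 and 1.10 at the low dose and 1.38 and 0.58 at the high dose after 48 h, against 0.72 and 0.50 at the low dose and 0.85 and 1.39 at the high dose after 3.5 h. In the fit of every probe it missed the threshold at the high dose after 48 h (0.98 ± 0.27, adjusted p = 0.0569) and was called at the high dose after 3.5 h (1.12 ± 0.27, adjusted p = 0.0247). The size of the Siglec1 effect at the high dose after 48 h therefore depended on the probe, 3.10 for the brighter and 0.98 for the other, while the direction was shared. Which part of the transcript each probe reads is not given in the files.

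**Figure D2:**
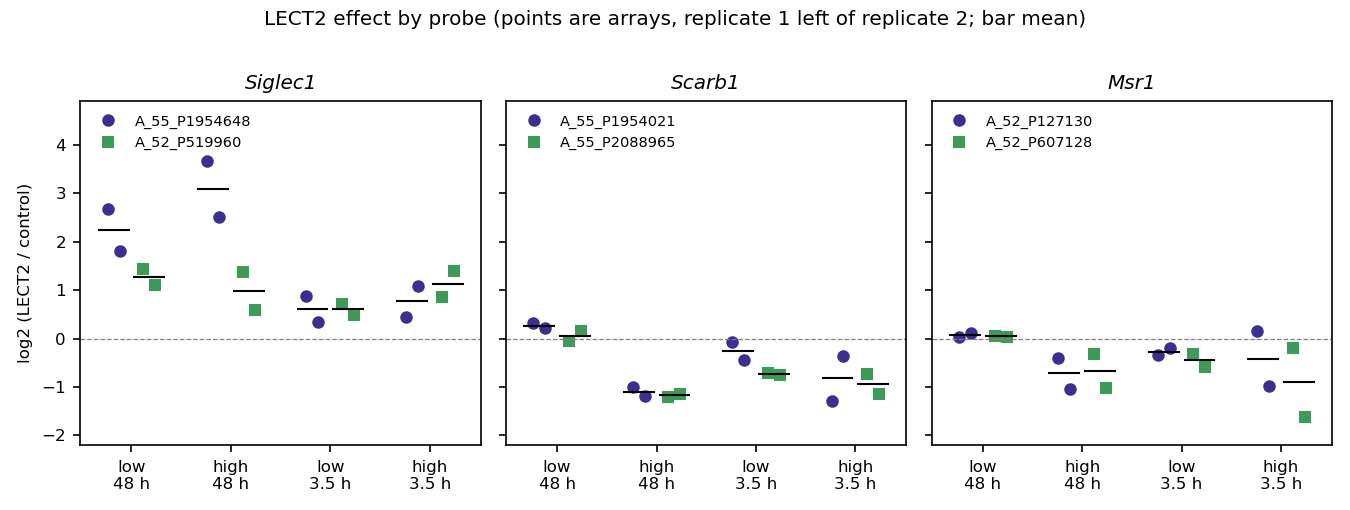
The log2 ratio of LECT2 over control (y axis) by dose and time (x axis) for the 3 receptor genes with more than 1 probe; circles are the brighter probe, squares the other, each point is 1 array and bars are means. The Scarb1 and Msr1 probes lie close together at the high dose after 48 h, while the Siglec1 probes part there, at means of 3.10 and 0.98.

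Mertk and Axl are receptor kinases that bind phosphatidylserine through bridging ligands. Mertk read 0.57 and -0.12 at the high dose after 48 h and 0.15 and -0.63 at the low dose after 48 h. At 3.5 h all its arrays were above 0, at 0.39 and 0.26 for the low dose and 1.06 and 0.08 for the high dose. Neither the mean of 0.57 ± 0.32 at the high dose after 3.5 h (adjusted p = 0.243) nor any other was called.

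In the main fit Axl changed sign between the times at the high dose without being called at either. Its arrays read -0.62 and -0.81 after 48 h (mean -0.71 ± 0.32, adjusted p = 0.183) and 0.84 and 0.61 after 3.5 h (mean 0.73 ± 0.32, adjusted p = 0.141). The low dose gave -0.07 and 0.20 after 48 h and -0.29 and 1.06 after 3.5 h. The difference at the high dose, 48 h minus 3.5 h, was -1.44 ± 0.45 (adjusted p = 0.0892). Leaving out the low dose replicate 1 at 3.5 h, a setting chosen after the data were seen, kept it at -1.44. The files as recorded gave high dose means of 0.22 at 3.5 h and 0.46 at 48 h. With the matched files and median centring they were -0.11 and -1.39, so the change of sign depended on the setting.

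The differences between doses and between times were tested in the same fit. For the high minus the low dose, 0 of the 10 receptor genes were called at either time, and 0% of all genes were. At an unadjusted p under 0.05 there were 0 receptor genes at 3.5 h and 2 at 48 h. These 2 were Scarb1 with -1.36 ± 0.38 (adjusted p = 0.327) and Mrc1 with -1.40 ± 0.52 (adjusted p = 0.425). Of all 26148 genes, 2048 at 3.5 h and 2738 at 48 h were at an unadjusted p under 0.05. The differences of Cd36, Msr1 and Axl at 48 h were -1.25 ± 0.76, -0.79 ± 0.43 and -0.78 ± 0.45, with limma adjusted p-values of 0.616, 0.581 and 0.599. For Marco and Siglec1 the arrays of the doses overlapped at 48 h, with differences of 1.72 ± 1.09 and 0.84 ± 0.51. From the scanner files under their recorded labels, several of these 48 h differences changed sign. They were 0.98 for Scarb1, 0.93 for Cd36, 0.24 for Axl, -1.92 for Marco and -0.61 for Siglec1. Mrc1 stayed below 0, at -0.30, as did Msr1. A dependence on dose was thus not shown for any receptor gene in 2 arrays per group.

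Between times at the high dose, 1 of 10 receptor genes was called against 8.30% of all genes. It was Siglec1, whose effect at 48 h exceeded that at 3.5 h by 2.33 ± 0.51 (limma, adjusted p = 0.0366), and its other probe gave -0.14 ± 0.38 (adjusted p = 0.844). From the scanner files under their recorded labels the difference of the brighter probe was -0.06. At the low dose 0 of 10 were called against 0.0994% of all genes, with 2 at an unadjusted p under 0.05. These 2 were Siglec1 at 1.64 ± 0.51 (adjusted p = 0.307) and the dim Cd163 at 1.57 ± 0.59 (adjusted p = 0.402). Of all 26148 genes, 2724 were at an unadjusted p under 0.05 in that comparison. The Cd36 difference between times at the high dose was -0.95 ± 0.76 (adjusted p = 0.462).

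The signal of each channel shows which side of a ratio moved. It was taken from the matched scanner files after loess and quantile scaling, so a level rests on that match and a level at 48 h against 3.5 h also on the slide. The control channels of the low and high dose arrays with the same time and replicate number were averaged into 1 control value. Siglec1 had a log2 signal of 11.24 with the high dose and 10.33 with the low dose at 48 h, against 8.71 in controls of that time. At 3.5 h it was 11.55 with the high dose and 11.13 with the low dose, against 10.52 in controls. The control signal of Siglec1 was thus lower at 48 h than at 3.5 h, and the signal with LECT2 at the high dose was about as high at both times. The other Siglec1 probe stood at 8.85 with the high dose after 48 h against 8.19 in controls, and at 9.36 after 3.5 h against 8.46.

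Marco had a log2 signal of 16.16 ± 0.42 (SD, n = 2) with the high dose after 48 h, against 13.25 ± 1.47 in controls. In replicates 1 and 2 its signals were 16.45 and 15.86 with the high dose, against 12.20 and 14.29 in controls, so the controls lay further apart than the treated cells. Cd36 stood at 13.82 ± 0.24 with the high dose and 14.90 ± 0.28 with the low dose after 48 h, against 16.06 ± 0.43 in controls. Mrc1 stood at 9.51 ± 0.10 with the high dose and 10.83 ± 0.08 with the low dose after 48 h, against 11.14 ± 0.58 in controls. Its signals at 3.5 h were lower in every condition, at 9.28 with the high dose and 9.21 with the low dose, against 10.06 in controls. Scarb1 stood at 10.27 ± 0.06 with the high dose after 48 h, against 11.29 ± 0.12 in controls. No receptor probe was saturated on any array.

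**Figure D3:**
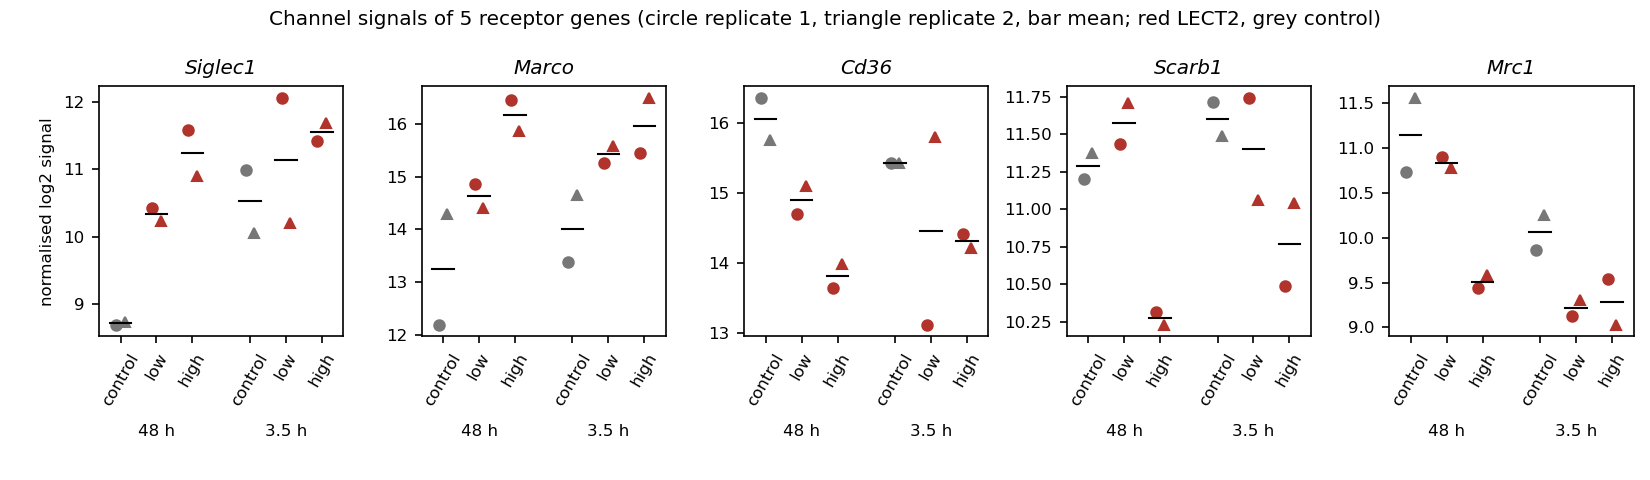
The normalised log2 signal (y axis) of the 5 receptor genes called at the high dose after 48 h, by condition and time (x axis); red points are LECT2 channels, grey points controls, circles and triangles replicates 1 and 2, and bars means. At 48 h the high dose lies above the control for Siglec1 and Marco and below it for Cd36, Scarb1 and Mrc1 in both replicates; the panels have different axes that do not start at 0.

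The calls at the high dose after 48 h were lost with fewer arrays and with the files as recorded. Leaving out either replicate of that group left 1 array, assumed to vary like the other groups, and ended all 5 calls with no change of direction. Siglec1 was at 2.52 without replicate 1 (adjusted p = 0.0892) and at 3.67 without replicate 2 (adjusted p = 0.0508). Far fewer of all genes were called in these fits as well. Under their recorded labels the scanner files gave 0 of 10 called, and 1 of 26134 among all genes, against 2933 of 26148 in the main fit. Siglec1 was then at 1.33, Marco at 0.90, Scarb1 at -0.09, Cd36 at -0.95 and Mrc1 at -1.05, each on its side of 0 in the main fit. The matched files gave 5 called after loess, at 2.76 for Siglec1, 3.05 for Marco, -0.997 for Scarb1, -1.59 for Mrc1 and -2.27 for Cd36. Centring each matched array on its median instead of loess added Msr1, Stab1 and Axl as lower, which made 8 of 10. It moved the median of all genes to -0.25 and called 8673 of 26109 genes, against 3274 of 26109 after loess. With no filter on dim probes Marco, Cd36 and Scarb1 missed the threshold, at adjusted p-values of 0.0720, 0.0626 and 0.0692. That setting called 1689 of 32539 genes.

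**Figure D4:**
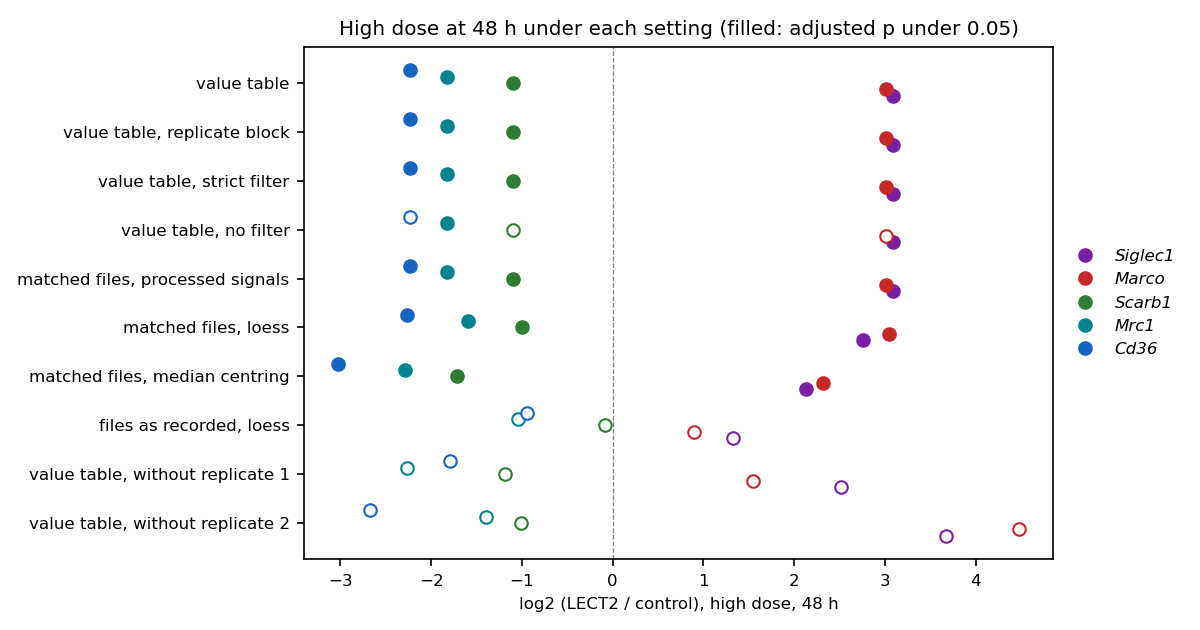
The log2 ratio of LECT2 over control at the high dose after 48 h (x axis) of the 5 called receptor genes under 10 settings (y axis); filled points have an adjusted p under 0.05. Siglec1 and Marco stay right of 0 and Cd36, Mrc1 and Scarb1 left of it in every setting shown, and all points are open for the files as recorded and for a single replicate.

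Marker genes of cell types differed beside these results, and their part in the results was not tested. Sums are of signals from the matched scanner files, on a linear scale after the same scaling as above. The summed signal of the 7 macrophage markers at the high dose after 48 h was 174090 to 230996 with LECT2, against 253834 to 312209 in controls, with Gata6 the only one of them called (-1.35 ± 0.21, adjusted p = 0.0124). The 5 dendritic cell genes summed to 1542 to 1590 with LECT2, against 4462 to 6044 in controls, with Itgax called lower (-3.01 ± 0.34, adjusted p = 0.00520) while Clec9a and Xcr1 were well above background in the LECT2 channel of 2 and 4 arrays and in the control channel of 4 and 1. The median ratio of the 5 was 0.23, with Zbtb46 the highest at 0.66 (adjusted p = 0.109), so the lower sum was not shared by all of them. The 8 mesothelial and fibroblast genes summed to 32829 to 39526 with LECT2, against 35475 to 63318 in controls, with Pdgfra (-3.51 ± 0.27) and Wt1 (-1.68 ± 0.20) called lower. Sums of B cell, mast cell and T and NK cell genes were 2031 to 2234, 1827 to 1983 and 2770 to 2848 with LECT2, against 2359 to 2610, 2043 to 2798 and 1803 to 2169 in controls. Among the T and NK cell genes Cd3g was called higher (1.30 ± 0.25, adjusted p = 0.0216) and Klrb1c lower (-1.91 ± 0.42, adjusted p = 0.0300). Klrb1c was dim, well above background in the LECT2 channel of 3 and the control channel of 6 of the 8 arrays.

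Beyond the 10 receptors, 6 lists of related genes were read in the same fit, and 72 of their 75 genes were tested. The lists were chosen with earlier results of these data known. Their shares beside those of all genes, here and for each list below, are thus descriptions and not tests. Of these 72, 6 rose (8.33%, against 4.31% of all genes) and 17 fell (23.6%, against 6.91%) at the high dose after 48 h. At the high dose after 3.5 h 8 rose (11.1%, against 10.2% of all genes) and 14 fell (19.4%, against 11.7%), so the share that rose was near that of all genes. The low dose gave 0 of 72 after 48 h, and after 3.5 h 3 higher and 3 lower (4.17% each, against 2.75% and 2.15% of all genes). Up to 3 genes with the largest change among those called are named for each list.

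Among 18 genes of apoptotic cell recognition, the high dose after 48 h gave 1 higher and 7 lower, or 44.4% called against 11.2% of all genes, with a list median of -0.50. The chains of complement C1q, which bind dying cells and start the classical pathway, led the list: C1qb read -2.52 and -4.09 (mean -3.31 ± 0.36), C1qa -2.44 and -3.42 (mean -2.93 ± 0.26) and C1qc -2.42 and -3.39 (mean -2.91 ± 0.30), with limma adjusted p-values of 0.00479, 0.00319 and 0.00398. After 3.5 h the high dose also gave 1 higher and 7 lower, or 44.4% against 21.9% of all genes, with a median of 0.06. Itgb5, the integrin chain that with alpha v binds Mfge8 on dying cells, fell by 1.58 ± 0.24 there, Pros1, protein S, the ligand of Mertk, fell by 1.44 ± 0.26, and C1qb fell by 1.27 ± 0.36. At the low dose after 3.5 h Itgb5 (-1.65 ± 0.24) and Pros1 (-1.34 ± 0.26) were called lower and Timd4, a phosphatidylserine receptor of resident macrophages, higher (1.11 ± 0.23).

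Of 12 other scavenger receptors tested, 3 rose and 3 fell at the high dose after 48 h, which is 6 of 12 against 11.2% of all genes. Cxcl16, a membrane-bound chemokine that also binds oxidised lipoproteins, read 2.04 and 2.22 (mean 2.13 ± 0.33, adjusted p = 0.0124), and Scarf1, an endothelial and myeloid receptor for acetylated lipoproteins, 2.32 and 1.58 (mean 1.95 ± 0.31, adjusted p = 0.0128). Lrp1, a large endocytic receptor, read -1.84 and -1.02 (mean -1.43 ± 0.31, adjusted p = 0.0312). At the high dose after 3.5 h 2 rose, Cxcl16 (1.40 ± 0.33) and Scarf1 (1.21 ± 0.31), and 1 fell, Colec12 (-1.35 ± 0.33), a scavenger receptor with a lectin domain. These 3 of 12 were close to the 21.9% of all genes called there. The same direction was thus called for Cxcl16 and Scarf1 at both times of the high dose.

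Of 8 lectin and sialic acid receptors, 1 rose and 3 fell at the high dose after 48 h, or 4 of 8 against 11.2% of all genes. The deposited ratios of Clec10a, the galactose-type lectin of macrophages, and of Siglecg were called lower (limma, adjusted p = 0.00689 and 0.00886). Neither gene was well above background in the LECT2 channel of either array, so only a bound is given for the size. By the matched files and loess they were at least 1.88-fold and at least 1.73-fold lower. The limma adjusted p-values of that setting were 0.0435 and 0.107, so the call of Siglecg was lost. Mrc2, the relative of Mrc1 that takes up collagen, read -2.59 and -1.16 (mean -1.88 ± 0.35), and its other probe was at -0.84. Its LECT2 channel was well above background on 1 of the 2 arrays, and with the matched files and loess it was at -0.77. At the high dose after 3.5 h Cd33 rose by 0.74 ± 0.21 and Mrc2 fell by 1.38 ± 0.35, with the other Mrc2 probe at 0.40, on the opposite side of 0. With the matched files and loess this Mrc2 call was lost (-0.43, adjusted p = 0.144), and the 2 of 8 called at 3.5 h were close to the 21.9% of all genes.

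Of 10 genes of haemoglobin and iron handling, 1 rose and 2 fell at the high dose after 48 h, or 3 of 10 against 11.2% of all genes. Haptoglobin (Hp), the plasma protein that binds free haemoglobin, read 3.92 and 1.90 (mean 2.91 ± 0.66, adjusted p = 0.0331). The ferritin light chain Ftl1, which stores iron, fell by 1.72 ± 0.35, and the biliverdin reductase Blvrb fell by 1.34 ± 0.27. At the high dose after 3.5 h 1 rose, the haem-binding hemopexin Hpx (2.78 ± 0.44), and 4 fell, led by the iron exporter Slc40a1 (-2.15 ± 0.44) and Ftl1 (-1.39 ± 0.35), or 5 of 10 against 21.9% of all genes. With the matched files and loess Hpx was at 1.95, and the Ftl1 call was lost (-0.87, adjusted p = 0.132). Hpx in controls and Slc40a1 with LECT2 were well above background on 1 of the 2 arrays each. Slc40a1 was also called lower at the low dose after 3.5 h (-2.24 ± 0.44, and -1.39 with the matched files and loess).

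Of 11 engulfment genes 1 rose at each dose after 3.5 h, and 1 fell at the high dose after 48 h. That is 9.09% in each, against 4.89% of all genes at the low dose and 21.9% at the high dose after 3.5 h, and 11.2% at the high dose after 48 h. Xkr8, which scrambles phosphatidylserine to the outer leaflet, rose by 2.59 ± 0.26 at the low dose and by 2.66 ± 0.26 at the high dose after 3.5 h. After 48 h at the high dose the exchange factor Trio fell by 1.13 ± 0.26, with its other probes at -0.16 and 0.05. Of 13 transcription factors of scavenger and clearance genes, 1 rose at the low dose and 2 rose and 1 fell at the high dose after 3.5 h, or 3 of 13 against 21.9% of all genes, about the same share. Spi1, which encodes PU.1, rose at 3.5 h by 1.16 ± 0.22 at the low dose and 1.18 ± 0.22 at the high dose. Nr1h2, the oxysterol receptor LXR beta, rose by 0.77 ± 0.23 and its partner Rxra fell by 0.92 ± 0.26 at the high dose after 3.5 h, and after 48 h at the high dose only Maf was called (-1.37 ± 0.29), or 7.69% against 11.2% of all genes. The Rxra LECT2 channel was well above background on 1 of the 2 arrays, and its other probe was at -0.27.

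**Figure D5:**
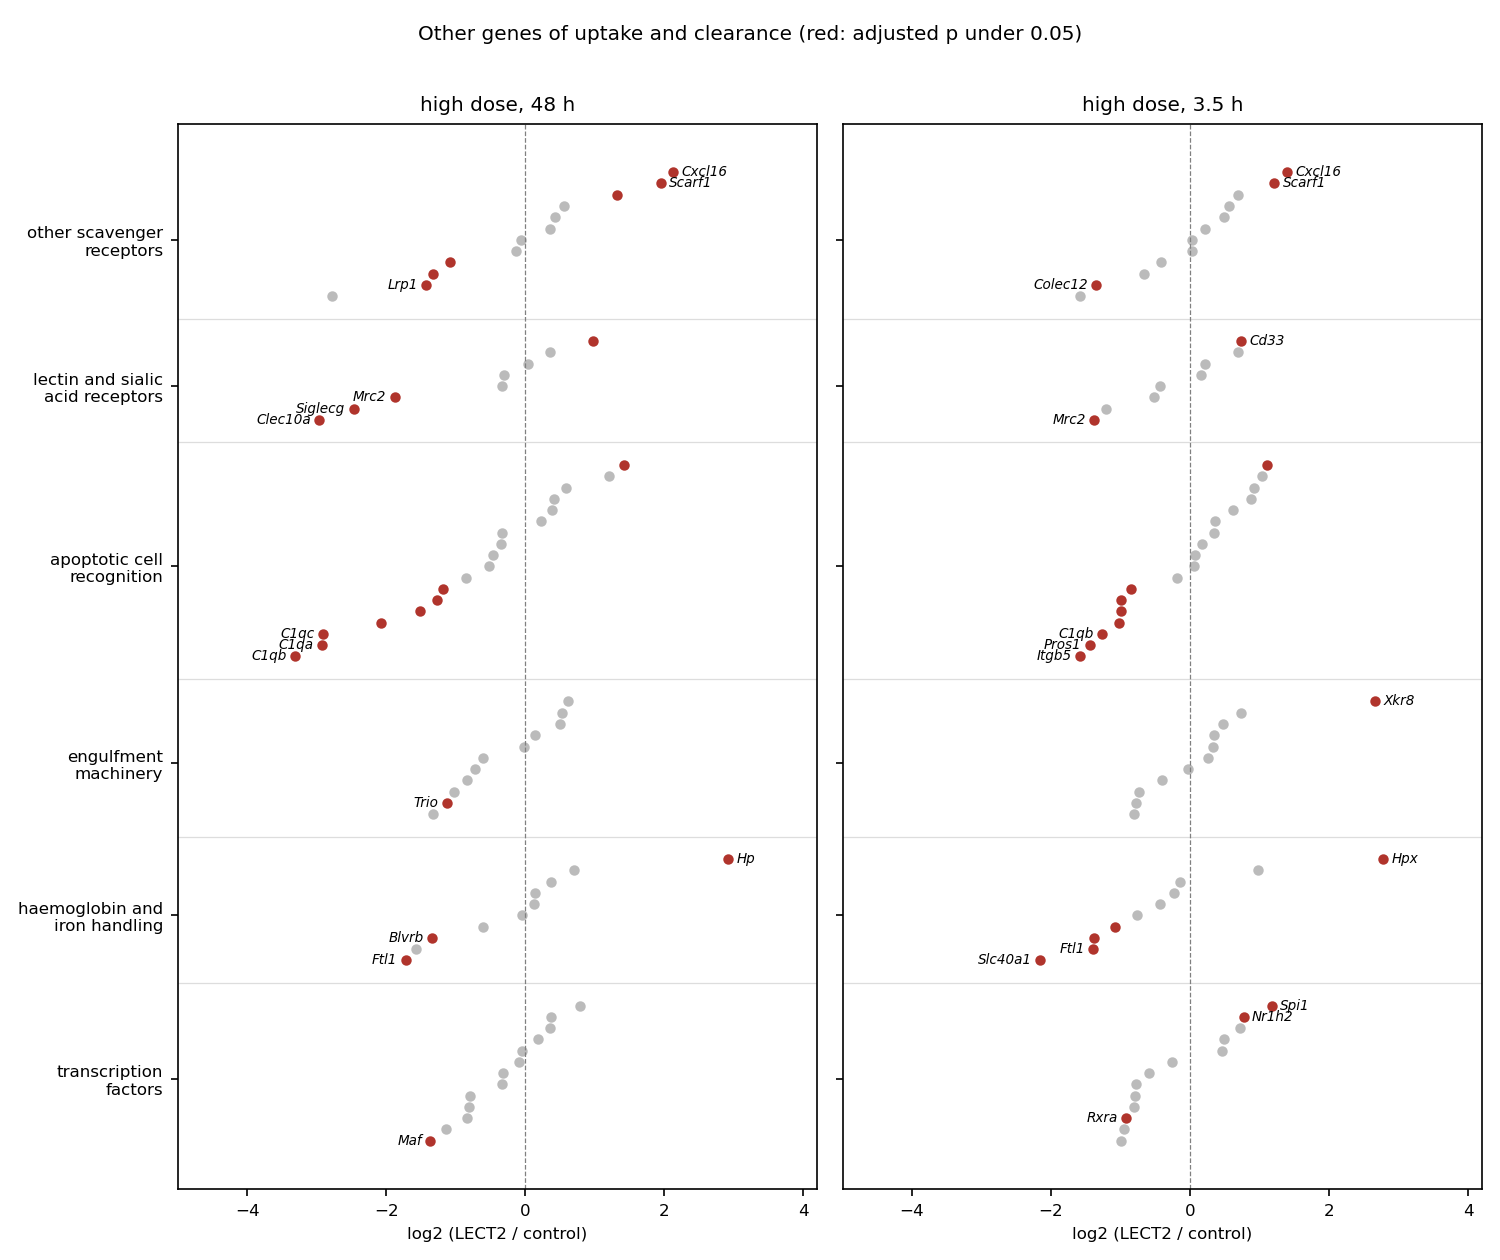
The log2 ratio of LECT2 over control (x axis) of each tested gene of 6 related lists (rows, sorted by value within a list) at the high dose after 48 h (left) and 3.5 h (right); red points have an adjusted p under 0.05, and up to 3 of them per list are named. Among the called genes the C1q chains and Clec10a lie lowest and Hp highest at 48 h, and Xkr8 and Hpx lie highest at 3.5 h. The LECT2 channel of Clec10a was not well above background at 48 h, so its distance from 0 is not a measured size.

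For each receptor gene the named genes with the smallest root mean square difference of the log2 ratio over the 8 arrays were looked up among 16744 candidates. Marco came closest to Saa1 (0.532) and Saa3 (0.540), serum amyloid A genes of the acute phase. Siglec1 came closest to Gm4841 (0.356) and Clic5 (0.446), Cd36 to Abhd12 (0.446) and St8sia6 (0.454), and Mrc1 to Tuba1b (0.272) and Txndc5 (0.287). Scarb1 came closest to Adam15 (0.186) and Cdk2ap2 (0.226), Msr1 to Pirb (0.220) and Tcn2 (0.221), and Stab1 to Klf2 (0.153) and Pold4 (0.209). Mertk came closest to Usp3 (0.127) and Slc25a21 (0.159), Axl to Olfr329 (0.203) and Olfr1230 (0.249), and the dim Cd163 to Lypd3 (0.376) and 4930555G01Rik (0.382). Genes with small effects have small differences from many others, so these distances are not comparable between receptors.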

How the data were processed

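RNA of mouse peritoneal macrophages with and without LECT2 was hybridised to 8 2-colour arrays. Per the file headers the authors' scanner files, made with Agilent Feature Extraction 10.7.3.1, hold median spot and background intensity for each channel, processed intensity (background-subtracted and dye-normalised) and a log10 ratio, red (Cy5) over green (Cy3). The deposited value table gives 1 log2 ratio per probe and sample. Its making is not stated, and it was compared with the scanner files over 19942 probes. Its scale and direction are those of log2 Cy5 over Cy3, and its column medians were between -0.22 and 0.08, so it was not centred on the median. The sign was turned to give LECT2 over control.

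Of 39429 probes, 26412 were named through RefSeq accessions or their identifiers in the reference table (GRCm38.p6), and 13017 were not named. A probe was kept where 2 or more of the 8 arrays had a channel well above background (31615 probes), and the brightest probe stood for each of 26148 genes. limma 3.58.1 (R 4.3.3) fitted 1 mean per group over all arrays, with 4 residual degrees of freedom. Differences between doses and times were contrasts of that fit, and p-values were adjusted over all genes. Alternatives were the replicate number as a block, no filter and a filter on all 8 arrays, every probe, centred columns, each replicate left out, and the scanner files as recorded or as matched, with normexp (offset 50) and loess, with median centring, or with the processed signals. The strict filter dropped Cd163.

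On each array 56.4% to 71.7% of probes were well above background in the LECT2 channel and 63.6% to 82.3% in the control channel, while precision is limited by the number of arrays. The fit was tested on simulated data for the high dose at 48 h over 26148 genes, where it called 54% of 100 genes changed by 1.5 log2 units and 100% of 100 genes changed by 3. Only these genes were changed, while 11.2% of all genes were called in the data. The simulated noise was independent and normal, with the spread that the fit had estimated. These shares are thus not detection rates for the data.

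The receptor genes and all related and marker lists were chosen with earlier results of these data known. Some listed genes are not reported here. All receptor genes are named; of each related list and comparison with control, up to 3 called genes with the largest change; and for each receptor gene the 2 nearest genes by root mean square difference. RefSeq promoters were searched for motifs with Python 3.11.15.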

Additional observations from a re-analysis of the deposited data

Results flagged for a closer look

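The effect of the high dose on Siglec1 differed between the times by the test of the difference itself. The log2 ratio of LECT2 over control was 3.67 and 2.52 at 48 h and 0.45 and 1.08 at 3.5 h, a difference of 2.33 ± 0.51 (limma, adjusted p = 0.0366). Both 48 h arrays lay above both 3.5 h arrays. The other Siglec1 probe gave -0.14 ± 0.38 for the same difference (adjusted p = 0.844), and the scanner files under their recorded labels gave -0.06 for the brighter probe. Time and slide cannot be told apart in the matched files. Groups of 2 arrays are too small for a search for outlying samples.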

How the results depend on the processing

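At the high dose after 48 h, the count of 5 called receptor genes stayed at 5 with the replicate block, the strict filter, every probe tested, the matched files' processed signals and loess, and without the low dose replicate 1 at 3.5 h, and was 4 with centred columns. It was 2 with no filter on dim probes, 0 from the files as recorded and 8 with the matched files centred on their median, and 0 to 0 when a replicate was left out. At the high dose after 3.5 h, the count of 0 became 1 with the replicate block (Mrc1), 1 with the strict filter (Scarb1), 3 with the matched files and loess (Scarb1, Axl, Siglec1), 5 with median centring, 1 with centred columns (Scarb1), 1 without the low dose replicate 1 at 3.5 h (Cd36), and 0 to 1 when a replicate was left out. At the low dose the count of 0 became 0 to 1 when a replicate was left out at 3.5 h (Cd36 without replicate 2, adjusted p = 0.0374) and 1 with the strict filter at 48 h (Siglec1, adjusted p = 0.0442). The count of 1 for 48 h minus 3.5 h at the high dose became 0 with no filter, 0 from the files as recorded, 2 with the matched files and loess, 2 without the low dose replicate 1 at 3.5 h (Axl added in both), and 0 to 0 when a replicate was left out. Among the values called in the main fit, the one that changed sign was Siglec1 in 48 h minus 3.5 h at the high dose. It was at -0.063 from the files as recorded (limma, adjusted p = 0.99998). Values not called in the main fit changed sign too. Axl in that comparison, for example, went from -1.44 in the main fit to 0.24 from the files as recorded. The counts of 0 in the other 3 comparisons stayed at 0 in every setting run. All these counts use the brightest probe of each gene, also where every probe was tested. Why the values moved was not tested. Leaving out a replicate left fewer arrays, and with no filter 32539 genes were tested in place of 26148. Median centring moved the median of all genes to -0.27 at the high dose after 3.5 h and -0.25 after 48 h. Calls over all genes at the high dose after 3.5 h were 5724 of 26148 in the main fit. The matched files gave 8125 of 26091 with loess and 11849 of 26091 with median centring. Centred columns gave 6052 of 26148, the replicate block 6042 of 26148 and the strict filter 6342 of 20232. The higher receptor counts in these settings thus went with more calls over all genes and do not set the receptor genes apart.

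The replicate numbers were not taken as pairs in the main fit, though control signals were averaged by replicate number. Deviations of same-numbered arrays from their group means correlated across genes at -0.06 to 0.47 over the 6 pairs of groups, and the block, with 3 residual degrees of freedom, changed 1 call of the 10 genes in 8 comparisons, Mrc1 at the high dose after 3.5 h (adjusted p = 0.0439). Groups of 2 arrays, 1 dye orientation, the conflict between columns and files, and signal near background for Cd163 are the main limits.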
